A study of Caenorhabditis elegans with 12 samples.

Results

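Adult Caenorhabditis elegans fed desiccated thymus were compared with adults fed a nuclear extract of thymus. The series names bovine thymus as the source of its extracts. The comparison used 6 of the 12 libraries of the study, 3 per diet, and took in every gene with enough reads, which was 14610 of the 46929 genes in the deposited table. The other 6 libraries, 3 from a control diet and 3 from a cytoplasmic thymus extract, entered the same model for the estimate of spread, and the control is printed as a reference level. Messenger RNA of whole worms was enriched with oligo(dT) beads and sequenced. All worms were raised to the last larval stage on nematode growth medium with live bacteria, and the diets started on day 1 of adulthood, which was day 4 of life. The sources used here do not give the strain, the age at collection or the number of worms per library. The labels call the molecule nuclear RNA, although the extraction they describe is of total RNA.

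A young egg-laying adult is largely a germline with developing embryos inside a body of few somatic cells. The hypodermis secretes the cuticle, an exoskeleton built mainly of small collagens that are made in bursts around each molt and, for an adult set, after the last one. The intestine is the organ that meets the diet, and it takes up peptides, exports foreign compounds through ABC transporters and makes yolk. In whole animals, fewer cells of a type and less RNA per cell cannot be told apart.

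Few genes separated the diets, and most of those that did were lower with desiccated thymus. They included 6 cuticle collagen genes, 3 genes of the nematode-specific peptide family nspc, the intestinal transporter gene pgp-1, the transcription factor gene pqm-1 and a neighbouring pair of hedgehog-related genes, grd-10 and grd-13. The single gene that was higher was set-25, which encodes a histone H3 lysine 9 methyltransferase. Of the 14610 genes, 20 were lower (0.137%) and 1 was higher (0.00684%) with desiccated thymus, by edgeR's quasi-likelihood test with Benjamini-Hochberg adjusted p under 0.05. In 4 of these 21 genes (0.144% of those tested) the diets differed at least 2-fold. At an unadjusted p under 0.05 edgeR gave 1028 lower (7.04%) and 821 higher (5.62%), and DESeq2 called 169 lower (1.16%) and 89 higher (0.61%) by adjusted p.

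The 6 libraries held 23.1 to 33.4 (in units of 1e6) counted reads. Ribosomal RNA genes took 14.6% of the reads of desiccated thymus replicate 3 and 0.376% to 1.7% of the other 5, and edgeR called 24 genes when those RNA genes were left out. Without desiccated thymus replicate 3 the number called was 10, and without replicate 1 or 2 of that diet it was 6 or 11. Without nuclear extract replicate 1, 2 or 3 it was 14, 5 or 11. Leaving out a library of the diets not compared raised it to 132 for control replicate 1, 73 for control replicate 3 and 54 for cytoplasmic extract replicate 3. Leaving out control replicate 2 gave 22, and leaving out cytoplasmic extract replicate 1 or 2 gave 19 and 29. Libraries of equal replicate number deviated together mainly in replicate 2 (correlation 0.473, against 0.254 for replicate 1 and 0.197 for replicate 3). With the number as a block edgeR called 408 genes in the 6 libraries (281 lower, 127 higher) and 41 in all 12 (37 lower or 0.253%, 4 higher or 0.0274%). The blocked fit of 6 libraries kept 20 of the 21 calls and lost col-184 (adjusted p = 0.217).

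**Figure D1:**
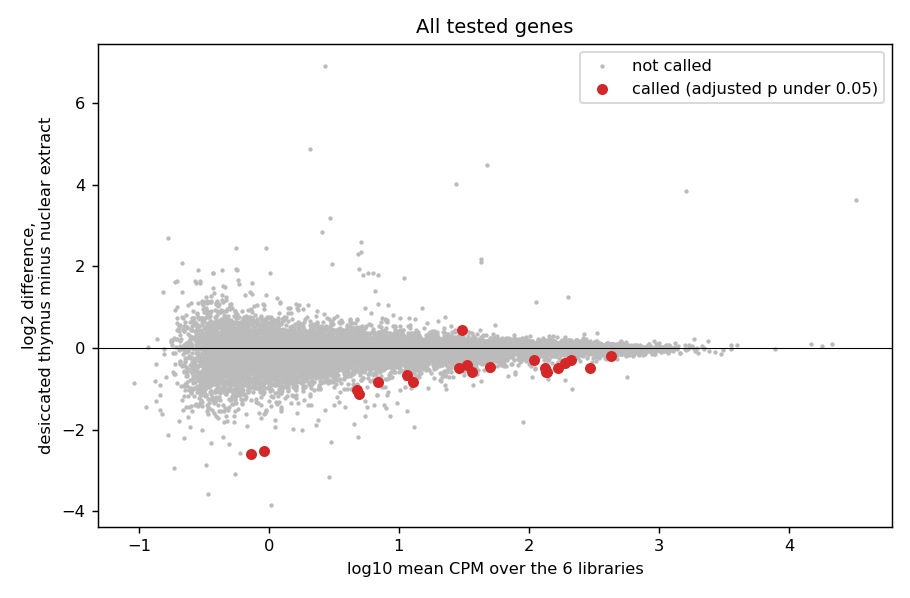
Each point is 1 of the tested genes, placed by its mean level over the 6 libraries (log10 CPM) and by its log2 difference, desiccated thymus minus nuclear extract. The 21 called genes are red, and 20 of them lie below 0, many close to it. The widest grey scatter is at the low levels on the left.

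All 21 called genes had no overlap between the 3 libraries of each diet, a property that 21% of all tested genes shared. Levels are given as CPM (reads of a gene per 1e6 reads of the library, after normalisation) and differences as log2 of desiccated thymus over nuclear extract with the standard error (SE) of the fit. Among the 20 lower genes, the mean of the controls was below that of desiccated thymus in 12, between the diets in 7 and above the nuclear extract in 1. The median over all tested genes was -0.01, and 7794 of the 14610 lay below 0. Counts of list members stand beside the shares over all genes, 7.04% lower and 5.62% higher at an unadjusted p under 0.05.

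**Figure D2:**
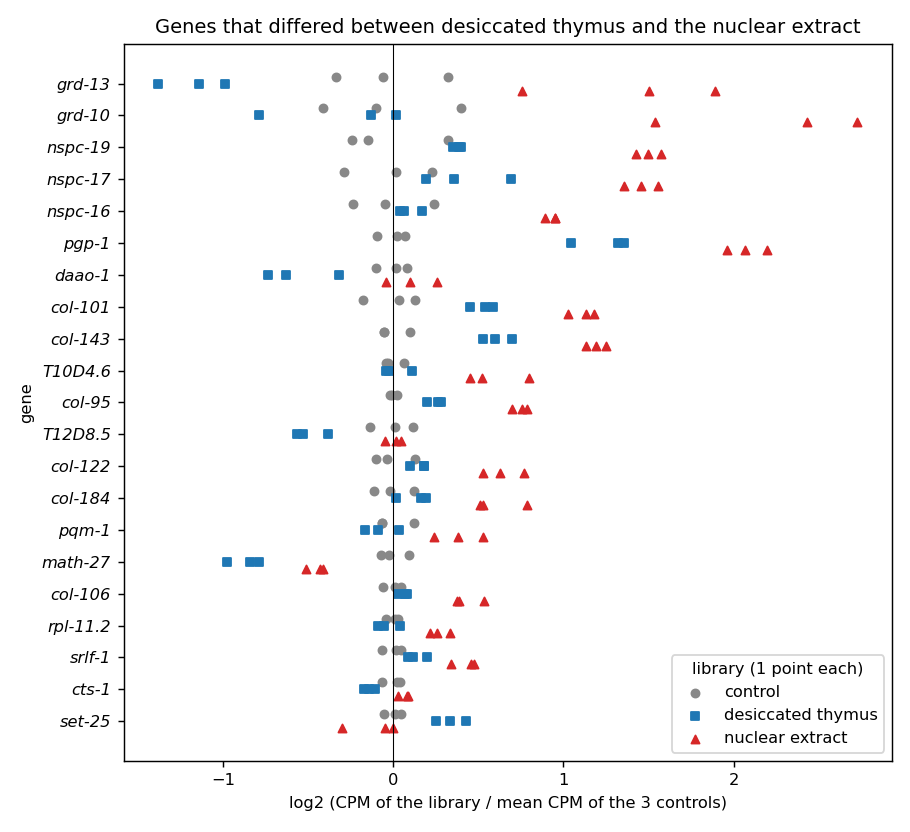
Levels of the 21 called genes in each library, as log2 of CPM over the mean of the 3 controls, with 1 point per library (grey circles control, blue squares desiccated thymus, red triangles nuclear extract). Blue and red points do not overlap in any row, and set-25 in the bottom row has the blue points on the right.

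Cuticle collagens made up the largest group among the called genes. Collagens of the cuticle are secreted, cross-linked and laid down in layers and furrows outside the hypodermis. Of 140 tested collagen genes, 6 were lower with desiccated thymus (4.29%, against 0.137% of all genes) and none was higher. At an unadjusted p under 0.05, 24 were lower and 2 higher, where all genes gave 7.04% lower and 5.62% higher. DESeq2 called 12 lower and none higher, where all genes gave 1.16% lower and 0.61% higher. The blocked fit of 6 libraries called 19 lower and 6 higher, where all genes gave 2.03% lower and 0.917% higher. The blocked fits of 9 and 12 libraries called 7 lower and 2 higher and 6 lower and none higher. Without nuclear extract replicate 2 the 2 higher at an unadjusted p under 0.05 became 5 and the 24 lower became 16. The 24 became 17, 23 and 19 without desiccated thymus replicate 1, 2 or 3, and 30 and 16 without nuclear extract replicate 1 or 3. The median log2 difference of the 140 was -0.36. It was -0.17, -0.70 and -0.23 without desiccated thymus replicate 1, 2 or 3, and -0.58 and 0.03 without nuclear extract replicate 1 or 2. The summed level of the collagens was 2171 to 2588 CPM with desiccated thymus and 2671 to 4008 CPM with the nuclear extract, against 1495 to 2448 CPM in the controls.

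The smallest p belonged to col-143 (CELE_T15B7.3, chromosome V, 6835635 to 6836704, WBcel235, the build of all positions given). Its level was 115, 103 and 108 CPM in desiccated thymus replicates 1 to 3 and 163, 169 and 156 CPM in nuclear extract replicates 1 to 3, against 68.7, 76.4 and 68.6 CPM in the controls. The diets stood apart by far more than the spread within either, and desiccated thymus lay between the control and the nuclear extract. The log2 difference was -0.58 (SE 0.0522, edgeR adjusted p = 0.000119), a 1.496-fold difference. It was also the only gene to pass a test against a fold threshold of 1.2. The gene col-101 (CELE_K02D7.3, chromosome IV, 325435 to 327020) measured 116, 105 and 112 CPM with desiccated thymus, 174, 168 and 157 CPM with the nuclear extract and 67.9, 83.8 and 78.8 CPM in the controls, and the diets again did not overlap. Its log2 difference was -0.59 (SE 0.0664, edgeR adjusted p = 0.00175). For col-95 (CELE_Y41C4A.16, chromosome III, 11703994 to 11705091) the levels were 111, 106 and 113 CPM against 150.4, 159.8 and 157 CPM, with controls at 94.1, 92.3 and 91.5 CPM, and the log2 difference was -0.50 (SE 0.0530, edgeR adjusted p = 0.000574).

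The gene col-122 (CELE_T05A1.2, chromosome IV, 9563379 to 9564441) measured 249, 235 and 249 CPM on desiccated thymus, 339, 374 and 317 CPM on the nuclear extract and 214, 239 and 205 CPM in the controls. Here desiccated thymus lay within or just above the controls and the nuclear extract above both, with a log2 difference of -0.49 (SE 0.0611, edgeR adjusted p = 0.00407). The gene col-106 (CELE_Y77E11A.15, chromosome IV, 1459896 to 1460786), named after its values were seen, had the smallest difference of the 6. It measured 167, 168 and 162 CPM with desiccated thymus, 208, 230.4 and 206 CPM with the nuclear extract and 160.1, 164 and 153 CPM in the controls, a log2 difference of -0.38 (SE 0.0479, edgeR adjusted p = 0.00309). These 5 genes passed in each of the 12 fits that left out 1 library. The sixth, col-184 (CELE_F15A2.1, chromosome X, 13469455 to 13470409), was at 147, 129.8 and 144 CPM with desiccated thymus, 183, 221 and 185 CPM with the nuclear extract and 118.9, 140.0 and 127 CPM in the controls. Its log2 difference of -0.49 (SE 0.0809, edgeR adjusted p = 0.0491) lost its call without any one of the 6 libraries or cytoplasmic extract replicate 1 or 2 (edgeR adjusted p 0.0596 to 0.174) and when only these diets were fitted (edgeR adjusted p = 0.0789). Reads of col-143, col-101 and col-122 overlap genes on the other strand, whose own counts over the 6 libraries were far smaller, with 1624 against 21613 for col-101 as the largest share.

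The most highly counted collagens spread the least within a diet. At a mean of at least 50 CPM there were 11 collagen genes, and all 11 were lower with desiccated thymus, with log2 differences from -0.78 to -0.38. The cut at 50 CPM was not planned and all 6 called collagens lie above it, so these counts are a description. Of these 11, 10 passed an unadjusted p of 0.05 and 6 were called, and the median SD of log2 CPM within a diet was 0.127, close to the 0.14 over all tested genes. The 5 that were not called are named after their values were seen. Among these 5, col-119 measured 157, 127 and 138 CPM with desiccated thymus and 228, 275 and 222 CPM with the nuclear extract (log2 difference -0.78, edgeR adjusted p = 0.0598). For col-181 the values were 258, 226 and 239 CPM and 309.7, 384 and 319.8 CPM (log2 difference -0.49, edgeR adjusted p = 0.105). The log2 differences of the others were those of col-140 (-0.75), col-178 (-0.70) and col-124 (-0.63). Their 3 libraries per diet did not overlap either, but nuclear extract replicate 2 was well above the other replicates of its diet in col-140, col-178 and col-124.

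Below 50 CPM no collagen was called. The 48 genes between 5 and 50 CPM had a median SD within a diet of 1.13 on the log2 scale and the 81 under 5 CPM one of 0.943. Several were highest in replicate 2 of every diet shown. The gene col-125 measured 2.70, 23.5 and 8.77 CPM with desiccated thymus, 4.75, 32.8 and 14.8 CPM with the nuclear extract and 0.757, 9.89 and 8.75 CPM in the controls. In the same order, col-71 measured 6.31, 35.3 and 9.14 CPM, 2.20, 10.1 and 3.10 CPM and 2.87, 7.48 and 1.80 CPM. With the replicate number as a block in the 6 libraries, col-71 was higher with desiccated thymus (edgeR adjusted p = 3.51e-06) and col-125 was lower (0.00585). Over all 12 libraries the blocked fit called neither, with an edgeR adjusted p of 0.408 for col-71 and 0.843 for col-125. Both were chosen after their values were seen.

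**Figure D3:**
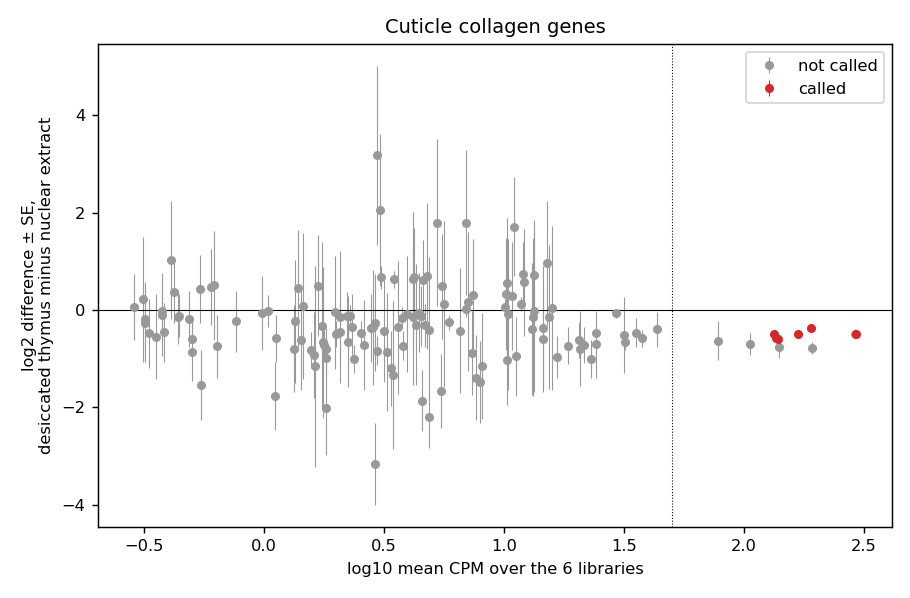
Log2 difference (desiccated thymus minus nuclear extract, bars ± SE of the fit) of the 140 tested cuticle collagen genes against their mean level over the 6 libraries (log10 CPM). The 11 genes right of the dotted line at 50 CPM all lie below 0 with shorter bars than most others, and the 6 called genes are red, while genes to the left scatter on both sides of 0.

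Other parts of the apical matrix gave lower values with desiccated thymus without a call by edgeR. The annular furrow collagens dpy-2, dpy-3, dpy-7, dpy-8, dpy-9 and dpy-10, which shape the circumferential grooves of the cuticle, were 6 of 6 below 0, with a median of -0.81 (0 called by edgeR or DESeq2, 3 lower at an unadjusted p under 0.05). Without desiccated thymus replicate 1 or 3, or nuclear extract replicate 2 or 3, 1 gene was lower at that p, and without nuclear extract replicate 2 the median was -0.52. The gene dpy-7 measured 1.44, 1.46 and 1.85 CPM with desiccated thymus, 2.05, 3.77 and 3.69 CPM with the nuclear extract and 0.877, 0.857 and 0.917 CPM in the controls (edgeR adjusted p = 0.169, or 0.0497 with the replicate block in 6 libraries, 0.117 in 9 and 0.174 in 12). Against 7794 of 14610 over all genes, 69 of 78 tested genes of molting and the apical matrix lay below 0, with a median of -0.32. edgeR called none of them, 16 were lower and none higher at an unadjusted p under 0.05, DESeq2 called 1 lower and the blocked fit 5 lower in 6 libraries and none in 9 or 12. All tested genes gave 7.04% lower and 5.62% higher at that unadjusted p, 1.16% lower by DESeq2 and 2.03% lower by the blocked fit of 6 libraries. The 16 became 9 without desiccated thymus replicate 1, 9 without nuclear extract replicate 2 and 8 without its replicate 3, where the median was -0.18. Among those 5, which were picked after their values were seen, the apical matrix gene noah-1 measured 8.83, 8.57 and 9.32 CPM against 10.1, 14.9 and 17.5 CPM, with controls at 3.39, 5.41 and 7.03 CPM. The protease inhibitor gene of molting mlt-11 measured 5.60, 5.74 and 4.80 CPM against 6.80, 11.4 and 13 CPM, with controls at 1.79, 3.23 and 4.36 CPM. In both genes the nuclear extract was above desiccated thymus in every library and its own replicates spread the more widely.

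Hedgehog-related proteins of the worm are secreted and include the groundhog family, to which grd-10 and grd-13 belong. They had the widest differences among the called genes, at low levels. The gene grd-13 (CELE_W05E7.3, chromosome IV, 3438312 to 3439507) measured 0.176, 0.208 and 0.231 CPM with desiccated thymus, 0.772, 1.70 and 1.30 CPM with the nuclear extract and 0.438, 0.363 and 0.573 CPM in the controls. The gene grd-10 (CELE_F09D12.1, chromosome IV, 3441055 to 3441841) measured 0.323, 0.291 and 0.185 CPM, 0.927, 2.11 and 1.72 CPM and 0.239, 0.297 and 0.420 CPM in the same order. Desiccated thymus overlapped the controls in grd-10 and lay below them in grd-13, and the nuclear extract lay above them in both. The log2 differences were -2.60 (SE 0.471, edgeR adjusted p = 0.0461) and -2.53 (SE 0.421, edgeR adjusted p = 0.0256). The 2 genes lie 1548 bases apart on the same strand and rest on few reads, 112 over the 6 libraries for grd-13, and DESeq2 gave no adjusted p for either. The call of grd-10 was lost without any one of the 6 libraries except nuclear extract replicate 1 (edgeR adjusted p 0.0806 to 0.187), and that of grd-13 without those same libraries or cytoplasmic extract replicate 1 (edgeR adjusted p 0.067 to 0.202). Of 34 tested hedgehog-related genes these 2 were called (5.88%, against 0.137% lower over all genes), and the median was -0.13. At an unadjusted p under 0.05 there were 5 lower and none higher, where all genes gave 7.04% and 5.62%. Without desiccated thymus replicate 3 or nuclear extract replicate 1, 2 or 3, these 5 became 3, 9, 2 and 3, and over the fits without 1 of the 6 libraries the median ranged from -0.55 (without desiccated thymus replicate 2) to -0.04 (without its replicate 3). Of 17 hypodermis markers, grd-10 alone was called, and their summed level was close but did not overlap, at 223 to 225.2 CPM with desiccated thymus and 225.7 to 280.4 CPM with the nuclear extract. Their median was -0.22, and it was -0.11 and -0.35 without desiccated thymus replicate 1 or 2 and -0.44 and -0.14 without nuclear extract replicate 1 or 2.

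The family nspc encodes short peptides found in nematodes and is clustered on the X chromosome. Of its 20 known genes 14 were tested, and 3 of these were lower with desiccated thymus, where 0.137% of all genes were. The gene nspc-19 (CELE_D1025.9, chromosome X, 14528699 to 14529114) measured 3.11, 3.04 and 3.14 CPM with desiccated thymus, 6.72, 6.41 and 7.08 CPM with the nuclear extract and 2.15, 2.01 and 2.98 CPM in the controls. Desiccated thymus was close to the highest control and the nuclear extract was well above all of them, a log2 difference of -1.12 (SE 0.190, edgeR adjusted p = 0.0276) or 2.17-fold. Its neighbour nspc-17 (CELE_D1025.8, chromosome X, 14524754 to 14525181) measured 2.67, 3.79 and 3.00 CPM against 6.88, 6.41 and 5.99 CPM, with controls at 1.91, 2.74 and 2.37 CPM (log2 difference -1.03, SE 0.191, edgeR adjusted p = 0.0491). For nspc-16 (CELE_D1025.6, chromosome X, 14523575 to 14524021) the levels were 5.28, 4.83 and 4.89 CPM against 8.69, 9.06 and 9.05 CPM, with controls at 4.54, 3.99 and 5.54 CPM (log2 difference -0.83, SE 0.139, edgeR adjusted p = 0.0256).

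The 3 called nspc genes were each lost without any one of the 6 libraries, with edgeR adjusted p of 0.0684 to 0.126 for nspc-16, 0.0824 to 0.174 for nspc-19 and 0.057 to 0.204 for nspc-17, which was also lost without cytoplasmic extract replicate 1 (0.0713). All 14 tested members had a log2 difference below 0, from -1.15 to -0.25 with a median of -0.59, and 11 passed an unadjusted p of 0.05. DESeq2 called 9 of them lower and the blocked fit of 6 libraries 11. All tested genes gave 7.04% lower at that unadjusted p, 1.16% lower by DESeq2 and 2.03% lower by that blocked fit. The family was grouped after its values were seen, so these counts are a description. Its members are near-identical in part, and the treatment of reads that fit several places is not known here, so the values of single members are uncertain. The gene nspc-10, which had the most reads of the family, measured 23.1, 30.4 and 25.4 CPM with desiccated thymus, 37.2, 37.6 and 39 CPM with the nuclear extract and 19.5, 21.8 and 29.3 CPM in the controls. The gene nspc-18, next to the called members, measured 3.93, 4.87 and 3.83 CPM, 9.08, 10.3 and 8.59 CPM and 2.79, 1.85 and 4.47 CPM in that order (edgeR adjusted p = 0.0629).

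In the intestine, pgp-1 (CELE_K08E7.9, chromosome IV, 12591704 to 12599169), which encodes a P-glycoprotein of the ABC transporter family that pumps compounds out of intestinal cells, was lower with desiccated thymus. It measured 10.03, 8.07 and 9.79 CPM with desiccated thymus, 18, 15.2 and 16.38 CPM with the nuclear extract and 4.11, 3.66 and 3.98 CPM in the controls. The 3 groups formed 3 separate steps, with the control lowest. The log2 difference was -0.83 (SE 0.128, edgeR adjusted p = 0.0181), a 1.78-fold difference, and the call was lost without any one of the 6 libraries (edgeR adjusted p 0.0502 to 0.0684). Of 19 intestine markers pgp-1 alone was called (5.26%), with a median of -0.14. At an unadjusted p under 0.05, 6 were lower and none higher, and DESeq2 called 3 lower. Of 48 ABC transporter genes pgp-1 was again the single call (2.08%), with 8 lower and 3 higher at that unadjusted p and 2 lower by DESeq2. The 8 became 5 without desiccated thymus replicate 1, 2 or 3. Over all genes 0.137% were called lower by edgeR and 1.16% by DESeq2, with 7.04% lower and 5.62% higher at that unadjusted p. Without nuclear extract replicate 1 the 6 lower intestine markers became 3. By sign alone, 13 of the 19 markers lay below 0, beside 7794 of the 14610 tested genes. The other markers lay above 0 and are named after their values were seen. Their log2 differences were 0.15 for ges-1, 0.13 for elt-2, 0.09 for asp-1, 0.08 for pgp-3 and elt-7 and 0.003 for cpr-1. The peptide transporter gene pept-1 measured 19, 20.6 and 19.9 CPM with desiccated thymus, 36.3, 28.4 and 32.3 CPM with the nuclear extract and 8.45, 9.89 and 8.33 CPM in the controls. It followed the same 3 steps without a call (log2 difference -0.71, SE 0.170, edgeR adjusted p = 0.121), and it was called by DESeq2 (adjusted p = 0.00356) and by edgeR with the replicate block in 6 libraries (0.0005) or 9 (0.0208), but not in 12 (0.133). The same held for ifb-2, an intermediate filament gene of the gut's terminal web named after its values were seen, at 23.9, 29.8 and 22.9 CPM against 34.9, 42.8 and 36 CPM (edgeR adjusted p = 0.231, or 0.000436, 0.0308 and 0.13 with the block in 6, 9 and 12 libraries). The summed level of the intestine markers overlapped, at 2206 to 2427 CPM with desiccated thymus and 2198 to 2385 CPM with the nuclear extract.

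The gene pqm-1 (CELE_F40F8.7, chromosome II, 11150391 to 11152595) encodes a zinc finger transcription factor that acts on growth and stress genes and complements the factor DAF-16. It measured 39.4, 41.6 and 45.4 CPM with desiccated thymus, 63.8, 57.7 and 52.3 CPM with the nuclear extract and 42.4, 42.4 and 48.2 CPM in the controls. Desiccated thymus overlapped the controls and the nuclear extract lay above them, with a log2 difference of -0.46 (SE 0.0770, edgeR adjusted p = 0.0256). The call was lost without desiccated thymus replicate 1 or 2 or nuclear extract replicate 1 or 2 (edgeR adjusted p 0.0851 to 0.181). None of 10 tested genes named downstream of DAF-16 was called by edgeR, with 1 lower and 1 higher at an unadjusted p under 0.05 and 1 lower by DESeq2. All tested genes gave 7.04% lower and 5.62% higher at that unadjusted p, and 1.16% lower by DESeq2. The yolk protein gene vit-2 measured 17173, 19334 and 18088 CPM with desiccated thymus and 17609.9, 16936 and 18226 CPM with the nuclear extract, and the diets overlapped.

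Among metabolic and translation genes, daao-1 (CELE_Y69A2AR.5, chromosome IV, 2614194 to 2617147), which encodes a D-amino acid oxidase, measured 8.45, 7.86 and 10.5 CPM with desiccated thymus, 15.6, 14 and 12.7 CPM with the nuclear extract and 12.2, 13.3 and 13.8 CPM in the controls. Here it was desiccated thymus that stood apart, below the controls, while the nuclear extract overlapped them. The log2 difference was -0.66 (SE 0.124, edgeR adjusted p = 0.0491). The call was lost without any one of the 6 libraries except desiccated thymus replicate 3. It was also lost when control replicate 2 was left out, or replicate 1 or 2 of the cytoplasmic extract (over all of these, edgeR adjusted p 0.0568 to 0.199). The citrate synthase gene cts-1 (CELE_T20G5.2, chromosome III, 10214771 to 10216635), named after its values were seen, had the smallest difference of all called genes, with 393, 400.1 and 410.3 CPM against 451, 467 and 469 CPM and controls at 423, 455 and 448 CPM. Its log2 difference of -0.20 (SE 0.0381, edgeR adjusted p = 0.0491) was lost without any one of the 6 libraries, or control replicate 2, or the first or second library of the cytoplasmic extract (edgeR adjusted p 0.0543 to 0.201). Of 59 nuclear-encoded respiratory chain genes none was called by edgeR, 16 were lower and 1 higher at an unadjusted p under 0.05, and DESeq2 called 2 lower, with a median of -0.09. All tested genes gave 7.04% lower and 5.62% higher at that unadjusted p, and 1.16% lower by DESeq2. The 16 became 5 and 26 without desiccated thymus replicate 1 or 2, and 8 and 7 without nuclear extract replicate 1 or 2. The ATP synthase gene atp-2 measured 1353, 1399 and 1411 CPM with desiccated thymus and 1543, 1558 and 1441 CPM with the nuclear extract (log2 difference -0.13, edgeR adjusted p = 0.251).

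The ribosomal protein gene rpl-11.2 (CELE_F07D10.1, chromosome X, 2241738 to 2242618) measured 94.3, 103 and 96.4 CPM with desiccated thymus, 117, 127 and 119.7 CPM with the nuclear extract and 97.3, 101 and 102 CPM in the controls. The nuclear extract was above the other groups, and desiccated thymus overlapped the control. Its log2 difference was -0.30 (SE 0.0502, edgeR adjusted p = 0.0256), a call that was lost without desiccated thymus replicate 1 or 3 or nuclear extract replicate 2 or 3 (edgeR adjusted p 0.0713 to 0.174). Its paralog rpl-11.1, named after its values were seen, overlapped between the diets, at 759, 839.6 and 823 CPM and 881, 811 and 799.8 CPM (log2 difference -0.04, edgeR adjusted p = 0.846). Of 70 tested cytosolic ribosomal protein genes, 69 lay below 0 with a median of -0.10, and rpl-11.2 was the single call. At an unadjusted p under 0.05, 7 were lower and none higher, where all genes gave 7.04% and 5.62%. The 7 became 1 and 25 without desiccated thymus replicate 1 or 2 and 2 without nuclear extract replicate 1, and without desiccated thymus replicate 1 or 2 the medians were -0.04 and -0.17. Their summed level overlapped, at 42910 to 49890 CPM with desiccated thymus and 48470 to 50920 CPM with the nuclear extract.

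The one higher gene, set-25 (CELE_Y43F4B.3, chromosome III, 13283824 to 13293090), encodes a methyltransferase that places methyl groups on lysine 9 of histone H3 in silent chromatin. It measured 35.4, 37.8 and 33.4 CPM with desiccated thymus, 27.2, 22.8 and 28 CPM with the nuclear extract and 28.9, 27 and 28.3 CPM in the controls. Desiccated thymus lay above both other groups, which overlapped, with a log2 difference of 0.45 (SE 0.0822, edgeR adjusted p = 0.0466). The call was lost without any one of the 6 libraries or cytoplasmic extract replicate 1 (edgeR adjusted p 0.0655 to 0.187) and with scaling by library totals only. Its span overlaps unc-64 and F56A8.8 on the other strand, and unc-64 held 3688 reads over the 6 libraries beside 4817 for set-25. Whether the counting used strand is not stated, and reads of these genes then cannot be told apart.

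Germline, oocyte and eggshell genes had small differences toward desiccated thymus and no call by edgeR. Of 36 germline and oocyte regulators, 7 were higher and none lower at an unadjusted p under 0.05, and DESeq2 and the blocked fit of 6 libraries each called 3 higher, with a median of 0.05. All tested genes gave 5.62% higher and 7.04% lower at that unadjusted p, 0.61% higher by DESeq2 and 0.917% higher by that blocked fit. The 7 became 3 without nuclear extract replicate 2 and 11 without control replicate 1, and with the block in 9 or 12 libraries rnp-8 alone was called. In all 3, seen after the fact, desiccated thymus lay above the nuclear extract in every library. The RNA-binding gene rnp-8 measured 251, 253 and 255 CPM against 228, 213 and 218 CPM, with controls at 274, 255 and 258 CPM (log2 difference 0.21, edgeR adjusted p = 0.0548). The Pumilio-family regulator gene fbf-1, which maintains germline stem cells, measured 52.8, 52 and 52.1 CPM against 37.8, 44.2 and 44.3 CPM (log2 difference 0.31, edgeR adjusted p = 0.147), and the Nanos-family gene nos-1 had a log2 difference of 0.19.

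Of 20 eggshell and egg activation genes, 8 were higher and none lower at an unadjusted p under 0.05, with a median of 0.06, and DESeq2 called cpg-1 alone. Across all genes 5.62% were higher and 7.04% lower at that unadjusted p, and DESeq2 called 0.61% higher. The 8 became 2 without desiccated thymus replicate 1, 5 without nuclear extract replicate 2 and 4 without its replicate 3. The chondroitin proteoglycan gene cpg-1 measured 2603, 2395 and 2525 CPM with desiccated thymus, 2222, 2239 and 2224 CPM with the nuclear extract and 2791, 2639 and 2594 CPM in the controls (log2 difference 0.17, SE 0.0418, edgeR adjusted p = 0.115). The summed level of the eggshell genes did not overlap, at 18740 to 19310 CPM with desiccated thymus and 17930 to 18500 CPM with the nuclear extract, while that of the germline regulators did, at 18930 to 19660 CPM and 18360 to 19090 CPM. In the controls the sums were 19550 to 20260 CPM for the eggshell genes, above both diets, and 19530 to 20790 CPM for the germline regulators, which overlapped desiccated thymus. With scaling by library totals only, the medians turned to -0.02 for the eggshell genes and -0.03 for the germline regulators, where the median over all genes was -0.10. Of 11 tested early embryo genes 3 were higher at an unadjusted p under 0.05, or 1 without desiccated thymus replicate 2 or nuclear extract replicate 1 or 2, and none was called by edgeR or DESeq2. Sperm genes gave no gene at an unadjusted p under 0.05 among 72 tested, and none by DESeq2. Their median of -0.04 became -0.65 without desiccated thymus replicate 2 and 1.43 without nuclear extract replicate 2. The list thus hung on single libraries, and the lack of calls does not show that sperm genes were alike.

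Muscle, pharynx and nerve genes, which mark somatic tissues outside the gut, lay mostly below 0. Among all 14610 tested genes 7794 lay below 0, and 7.04% were lower at an unadjusted p under 0.05. Of 30 body wall muscle genes, 28 were below 0 with a median of -0.25. edgeR called none, 11 were lower and none higher at an unadjusted p under 0.05, DESeq2 called 4 lower and the blocked fit of 6 libraries 8 lower, while with the block in 9 or 12 libraries none was called. All tested genes gave 1.16% lower by DESeq2 and 2.03% lower by the blocked fit of 6 libraries. The tropomyosin gene lev-11 measured 191, 211 and 183 CPM with desiccated thymus, 217, 275 and 239 CPM with the nuclear extract and 175, 229 and 220.4 CPM in the controls (edgeR adjusted p = 0.295, or 0.00107, 0.0836 and 0.104 with the block in 6, 9 and 12 libraries). The myosin heavy chain gene unc-54 overlapped, at 365, 404 and 347 CPM and 381, 475 and 385 CPM. The summed level of the muscle genes was 2385 to 2659 CPM with desiccated thymus and 2719 to 3339 CPM with the nuclear extract, but 2107 to 2984 CPM in the controls, which overlapped both diets. Without nuclear extract replicate 2, the highest library of the list, 3 muscle genes were lower at an unadjusted p under 0.05 and the median was -0.16. The 11 became 7 and 2 without desiccated thymus replicate 1 or 3 and 7 without cytoplasmic extract replicate 2.

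Of 25 tested pharynx markers 24 were below 0, with a median of -0.52, or -0.29 without nuclear extract replicate 2. edgeR and DESeq2 called none, 7 were lower at an unadjusted p under 0.05 and the blocked fit called 5 lower in 6 libraries, 1 in 9 and none in 12. All tested genes gave 7.04% lower at that unadjusted p and 2.03% lower by the blocked fit of 6 libraries. The 7 became 11 and 3 without desiccated thymus replicate 2 or 3, and 13, 3 and 3 without nuclear extract replicate 1, 2 or 3. The pharyngeal myosin gene myo-1 measured 28.9, 34.4 and 30.8 CPM with desiccated thymus and 32.8, 45 and 44 CPM with the nuclear extract, with controls at 19.4, 32.5 and 30.04 CPM (edgeR adjusted p = 0.416, or 0.0184, 0.144 and 0.27 with the block in 6, 9 and 12 libraries). Of 25 tested neuron markers 22 were below 0, with a median of -0.33, 8 lower and 1 higher at an unadjusted p under 0.05 and none called by edgeR or DESeq2. Without nuclear extract replicate 3 the 8 became 2 and the median -0.20. The neuropeptide convertase gene egl-3 measured 68.2, 66.8 and 67.9 CPM with desiccated thymus against 70.3, 81 and 81.5 CPM with the nuclear extract. The neuropeptide carboxypeptidase gene egl-21 measured 47.1, 43.4 and 46.8 CPM against 49.9, 55.2 and 58.6 CPM. In both genes every library of the nuclear extract was above every library of desiccated thymus. The synaptic vesicle gene snb-1 went the other way, with 203, 211 and 199 CPM against 194, 194 and 187 CPM (edgeR adjusted p = 0.362). Of 102 neuropeptide genes 93 were below 0 (7794 of 14610 over all genes), with a median of -0.25. At an unadjusted p under 0.05, 16 were lower and none higher (7.04% and 5.62% over all genes). None was called by edgeR and 1 was lower by DESeq2 (1.16% lower over all genes). The summed levels did not overlap for the neuropeptides, at 538.6 to 589.7 CPM and 635.7 to 671.9 CPM, or for the neuron markers, at 544.7 to 553.3 CPM and 557.8 to 613 CPM. No member of the muscle, pharynx or neuron list was at 0 in all 6 libraries. Between these diets the medians of these somatic lists lay below 0, as did that of the collagens, and any link between them was not tested.

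**Figure D4:**
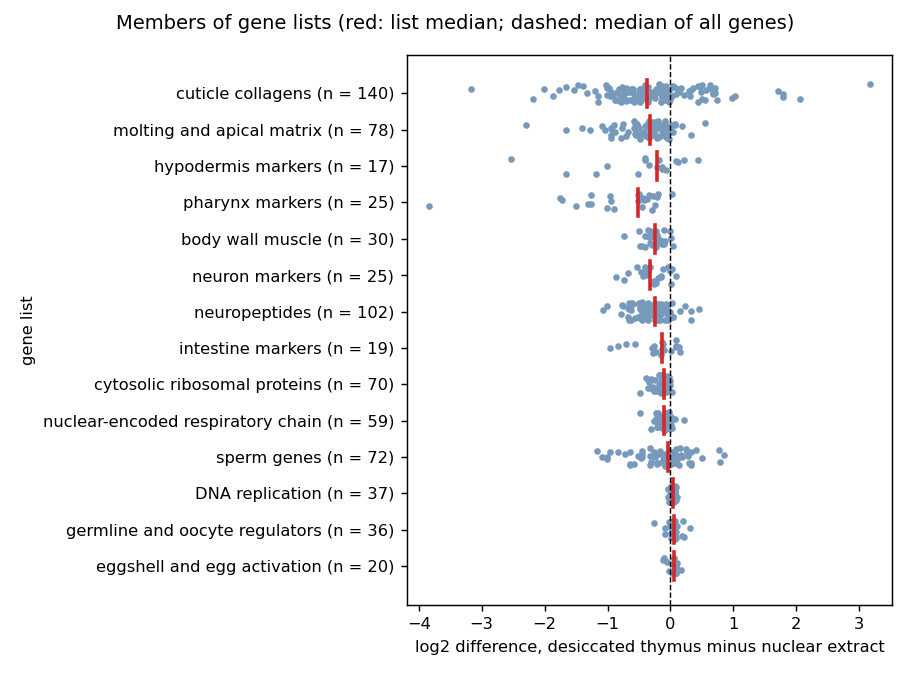
Log2 difference (desiccated thymus minus nuclear extract) of each tested member of 14 gene lists, with the list median in red and the median of all tested genes (-0.01) as a dashed line. Cuticle, pharynx, muscle and nerve lists have medians left of the line, from -0.52 for pharynx markers to -0.22 for hypodermis markers, and replication, germline and eggshell genes lie close to the line on its right.

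The remaining called genes belong to no list used here and were named after their values were seen, except the pseudogene math-27. The gene srlf-1 (CELE_C06A8.3, chromosome II, 7790591 to 7791375) measured 183, 186 and 197 CPM with desiccated thymus, 217, 239 and 236 CPM with the nuclear extract and 164, 174 and 178 CPM in the controls (log2 difference -0.29, SE 0.0462, edgeR adjusted p = 0.0212), lost without desiccated thymus replicate 1 or 2 or nuclear extract replicate 2 or 3 (edgeR adjusted p 0.0647 to 0.151). T10D4.6 (CELE_T10D4.6, chromosome II, 3119332 to 3123183) measured 31.1, 27.9 and 28.2 CPM, 39.3, 49.96 and 41.2 CPM and 28.2, 28 and 30.1 CPM in the same order (log2 difference -0.58, SE 0.0860, edgeR adjusted p = 0.0132), lost without desiccated thymus replicate 2 or 3 or nuclear extract replicate 2 (edgeR adjusted p 0.057 to 0.0776). In both genes the nuclear extract was above the other groups. T12D8.5 (CELE_T12D8.5, chromosome III, 13625974 to 13626750) measured 23.6, 23 and 26.2 CPM, 35.1, 33 and 34.4 CPM and 34.4, 31 and 36.9 CPM, with desiccated thymus below the other groups (log2 difference -0.50, SE 0.0880, edgeR adjusted p = 0.0428). It was lost without any one of the 6 libraries (edgeR adjusted p 0.0776 to 0.181), and it overlaps taf-9 on the other strand, which held 8969 reads over the 6 libraries beside its own 4530. The pseudogene math-27 (CELE_F36H5.2, chromosome II, 1767811 to 1770955) measured 30.3, 26.6 and 29.2 CPM, 38.9, 39.3 and 36.8 CPM and 49.9, 51.5 and 55.8 CPM, and it was the one lower gene whose controls lay above both diets (log2 difference -0.42, SE 0.0742, edgeR adjusted p = 0.043). Its call was lost without any one of the 6 libraries or control replicate 2 (edgeR adjusted p 0.05 to 0.187).

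Several groups of genes gave no call by edgeR between the diets, although DESeq2 called members of 2 of them. For reference, 7.04% of all genes were lower and 5.62% higher at an unadjusted p under 0.05. DESeq2 called 1.16% lower and 0.61% higher. The heat-inducible chaperone gene hsp-70 measured 102, 64.3 and 92.2 CPM with desiccated thymus, 58.6, 78.5 and 69.1 CPM with the nuclear extract and 245, 287 and 358 CPM in the controls, so both diets were far below the control and overlapped each other (log2 difference 0.33, SE 0.253, edgeR adjusted p = 0.645). None of the 5 tested heat-inducible chaperone genes passed an unadjusted p of 0.05 or DESeq2. The arsenite-inducible gene aip-1 measured 69.8, 62.4 and 68.4 CPM, 63.6, 65.5 and 65.7 CPM and 131, 121.7 and 127 CPM in the same order and also overlapped (log2 difference 0.04, SE 0.0542). Of 113 C-type lectin genes, which encode secreted carbohydrate-binding proteins of the gut and its defences, edgeR called none, with 14 lower and 5 higher (3 without nuclear extract replicate 2 or 3) at an unadjusted p under 0.05 and 6 lower and 2 higher by DESeq2. Of 58 UDP-glucuronosyltransferase genes of detoxification, edgeR called none, with 7 lower and 2 higher (none without desiccated thymus replicate 1 or nuclear extract replicate 2) at an unadjusted p under 0.05 and 3 lower by DESeq2. Of 37 DNA replication genes none was called by edgeR or DESeq2, 3 were higher at an unadjusted p under 0.05 (1 without nuclear extract replicate 2), and the ribonucleotide reductase gene rnr-2 measured 737, 689 and 720.3 CPM with desiccated thymus and 712, 707 and 690.1 CPM with the nuclear extract.

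**Figure D5:**
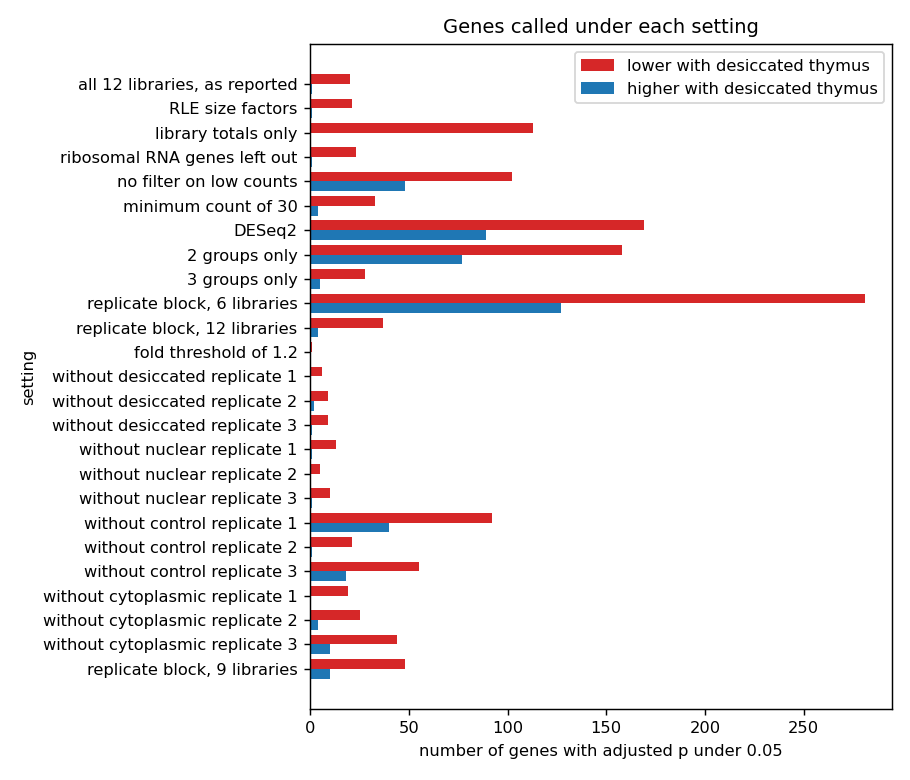
Number of genes with an adjusted p under 0.05 under each setting of the test (DESeq2 where named, otherwise edgeR), lower with desiccated thymus in red and higher in blue. Lower genes are at least as many as higher genes in every bar pair, from 1 and 0 at a fold threshold of 1.2 to 281 and 127 with the replicate block in 6 libraries.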

How the data were processed

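The deposited values are raw gene counts of 12 libraries, made by the authors with Trimmomatic, STAR and featureCounts, per the submitters' processing notes, which also name DESeq2 and give no versions. Libraries were poly(A)-enriched and read in pairs, per the labels' protocols. The build is WBcel235, read from the chromosome accessions in the table. Whether strand was used in counting, and how reads fitting several places were handled, is not stated in the sources used here. Each count column was given to the only sample title with its diet initials and replicate number, an inference from names.

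Of 46929 genes, 20979 had no count and 11340 more fell under edgeR's filterByExpr (minimum count 10 by group). The 14610 kept were scaled by TMM factors and fitted with 1 mean per diet over all 12 libraries in edgeR 4.0.16 (R 4.3.3; robust quasi-likelihood, biological coefficient of variation 12.7%, with 8 residual degrees of freedom). The contrast of desiccated thymus against the nuclear extract was tested two-sided with Benjamini-Hochberg adjustment over all tested genes and no fold threshold, and every single-gene adjusted p comes from this test unless another fit is named. DESeq2 1.42.0 was an alternative, as were other scalings, filters, sets of libraries and a replicate block. The code was tested on simulated data.

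The labels do not say whether replicates came from different cultures. The p-values therefore reflect only how far these samples differ among themselves, which may be technical variation. All 6 libraries were kept as separate samples, since chi-square over its degrees of freedom was 5.48 to 7.04 between nuclear extract replicates and 15.5 to 288 between desiccated thymus replicates, more than counting error gives. Ribosomal RNA genes were included in it. The 288 and 182 both involve desiccated thymus replicate 3, where these genes took 14.6% of the reads, and 15.5 is the value between replicates 1 and 2. Library totals were 23.1 to 33.4 (in units of 1e6). Pairing was checked by correlating deviations from the diet means over genes. Same-numbered libraries gave 0.254, 0.473 and 0.197, so the number was also used as a block, although desiccated thymus replicate 3 correlated equally with nuclear extract replicate 1 (0.197) and the labels name no shared batch. Deviations within a diet sum to 0, so a shift shared by replicate 2 also raises the values among replicates 1 and 3. The values for replicates 1 and 3 therefore cannot show pairing by themselves.

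Genes were named where the adjusted p was under 0.05, the diets did not overlap and the higher diet reached 5 CPM (the 12 higher and 12 lower of largest difference with a gene name, and the 3 of smallest p each way), and up to 5 called members of each of 52 gene lists, or up to 3 members of highest level where none was called. Genes outside this rule are marked in the text. The comparison, the lists and hsp-70, vit-2, col-143, pgp-1, pept-1 and aip-1 were chosen with earlier results of these data known. Lists are described by counts and medians, with no set test.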

Additional observations from a re-analysis of the deposited data

Results flagged for a closer look

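The cytoplasmic thymus extract was not part of the comparison, and in 10 of the 21 called genes all 3 of its libraries were above all 3 controls. Among collagens, its mean level was 89.9 CPM for col-143, 109.1 CPM for col-95, 94.67 CPM for col-101, 249.4 CPM for col-122 and 156.9 CPM for col-184. It was 5.673 CPM for pgp-1, 207.6 CPM for srlf-1 and 107.8 CPM for rpl-11.2. In the nspc family it was 6.703 CPM for nspc-16 and 3.663 CPM for nspc-17.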

How the results depend on the processing

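All 21 called genes kept their sign in every alternative that tested them, while the number of calls moved widely. Against 21 genes (20 lower and 1 higher with desiccated thymus), edgeR called 113 (113 lower, 0 higher) with scaling by library totals, 150 (102 lower, 48 higher) with no filter on low counts, 37 (33 lower, 4 higher) with a minimum count of 30, 235 (158 lower, 77 higher) when only these diets were fitted, 33 (28 lower, 5 higher) with the control added to them and 1 (1 lower, 0 higher) against a fold of 1.2. DESeq2 called 258 (169 lower, 89 higher). With the replicate number as a block, edgeR called 408 (281 lower, 127 higher) in the 6 libraries, 41 (37 lower, 4 higher) in all 12 and 58 (48 lower, 10 higher) in the 9 without the cytoplasmic extract, an alternative added after seeing the data. The block changed no other call among the 21 than those of col-184 in the fits of 6 and 9 libraries and of set-25 and daao-1 in the fit of 9. Leaving out 1 of the 12 libraries gave 5 to 132 calls, 5 to 92 lower and 0 to 40 higher. Leaving out a control or cytoplasmic library was also added after seeing the data. RLE size factors gave 22 calls. The call of set-25 was lost with library totals, and those of set-25, cts-1, col-184 and daao-1 with the control added and the cytoplasmic extract left out. The call of col-184 was also lost without the ribosomal RNA genes, with no filter on low counts and when only these diets were fitted. The cause of these shifts was not tested. The 112 reads of grd-13 over the 6 libraries limit its precision. None of the 48 collagens between 5 and 50 CPM or the 81 below had a call.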

Other observations

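DESeq2 called acs-2, which edgeR did not and which was looked up after its values were seen. It encodes an acyl-CoA synthetase of mitochondrial fat oxidation that responds to fasting. It measured 41.2, 33.1 and 45.9 CPM in desiccated thymus replicates 1 to 3, 84.8, 121 and 218 CPM in nuclear extract replicates 1 to 3 and 97.7, 110.04 and 149 CPM in the controls. Desiccated thymus was below every other library, and the nuclear extract replicates spread over more than the controls. The log2 difference was -1.82 (SE 0.371, edgeR adjusted p = 0.121, and DESeq2 adjusted p = 0.00014). Also looked up after its values were seen was the yolk protein gene vit-1, a close copy of vit-2 whose reads may be shared. It measured 395, 442 and 449.8 CPM with desiccated thymus, 811, 711 and 593 CPM with the nuclear extract and 259.7, 335 and 297 CPM in the controls (log2 difference -0.72, edgeR adjusted p = 0.128, and DESeq2 adjusted p = 0.00131). The other yolk protein genes overlapped or differed by at most 0.13 on the log2 scale.

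The called genes lay on chromosome IV (7 of 2439 tested), X (5 of 2092), II (4 of 2562), III (4 of 2306), V (1 of 2845) and I (0 of 2350). Over all tested genes the share called was 0.144%. The pair grd-10 and grd-13 on IV and the called nspc genes on X are neighbours. Differences between chromosomes were not tested.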
